A study of Mus musculus and Homo sapiens with 16 samples.

Results

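The cytosolic ribosome is built from ribosomal RNA and a set of ribosomal proteins, whose genes carry the names Rpl (large subunit) and Rps (small subunit). The genes described here were all those whose symbol in the count files was Rpl or Rps followed by a number and at most 1 letter a, x or l, together with Rplp0, Rplp1, Rplp2 and Rpsa. The rule found 80 of 39179 gene identifiers, of which 49 belonged to the large and 31 to the small subunit. They were spread over 19 chromosomes, with 14 of them on chromosome 7. Names ending in -ps, which mark processed copies, were left out.

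The samples were skin epithelium of C57BL/6 mice, the strain given for every mouse sample. At E17.5, 3 libraries of genotype Klf5+/- (heterozygous) and 3 of genotype Klf5-/- came from embryonic epidermis that was peeled, dissociated and sorted for integrin A6, leaving out cells stained by DAPI or CD45. A further set, titled HFD, letters that the labels do not expand, held 2 Klf5+/- and 2 Klf5-/- libraries of peeled epidermis that was ground without sorting; no age is given for it. The labels name neither a Cre driver nor the deleted part of Klf5, the zinc-finger transcription factor of epithelia that the series is about. Peak lists for KLF5, the histone mark H3K27ac and open chromatin (ATAC-seq) came from 1 sample each of wild type E17.5 epithelium, although the ATAC title carries the word Het.

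Most ribosomal proteins are made in near-equal numbers, 1 of each for nearly every ribosome. Their mRNAs are among the most abundant in a growing cell. In mammals most of these mRNAs begin with a cytosine and a run of pyrimidines, the terminal oligopyrimidine or TOP motif, through which their translation answers to the mTOR pathway and the binding protein LARP1. Their promoters are active in every tissue and rarely use a TATA box. A few genes have copies with narrower expression, such as Rpl3l, known from skeletal and heart muscle, and Rpl10l and Rpl39l, known from testis.

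A pyrimidine run near the start was common among these genes. The windows come from RefSeq (assembly GRCm38.p6), which held 60 of the 80 genes, each with 250 bases before and 50 bases after the start. A run of at least 8 pyrimidines within 50 bases of the start on the gene's own strand was found in 49 of 60, or 81.7%. The same search found one in 31.6% of 10402 matched genes tested at E17.5. The search takes a run anywhere in that stretch and does not show that the mRNA begins in it: a run of that length covered the first base itself in 15 of 60 (25.0%), against 3.86% of the tested genes. The lines that follow show 10 starts with a run of at least 8 pyrimidines within 50 bases. Among them, the runs of Rpl13a and Rps12 begin past the first base. Genes whose longest run lay further from the start were passed over. Those shown were chosen from the rest because they recur in the results or have the longest runs. Capitals mark the pyrimidine run, each sequence reads 5′ to 3′ on the gene's strand, and the coordinates are those of RefSeq.
Rpl7a (chr2:26910778-26910821, plus strand): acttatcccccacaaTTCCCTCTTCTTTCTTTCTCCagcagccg
Rpl27a (chr7:109519176-109519218, plus strand): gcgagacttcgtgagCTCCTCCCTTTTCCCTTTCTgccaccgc
Rpl13a (chr7:45128722-45128758, minus strand): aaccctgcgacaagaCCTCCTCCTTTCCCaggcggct
Rpl35 (chr2:39005113-39005153, minus strand): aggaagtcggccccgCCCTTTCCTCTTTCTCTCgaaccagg
Rpl15 (chr14:18270966-18271005, minus strand): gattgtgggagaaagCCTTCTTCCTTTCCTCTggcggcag
Rps10 (chr17:27635227-27635262, minus strand): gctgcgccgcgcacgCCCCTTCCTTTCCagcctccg
Rps12 (chr10:23787184-23787216, minus strand): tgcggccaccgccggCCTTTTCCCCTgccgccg
Rpl38 (chr11:114668563-114668595, plus strand): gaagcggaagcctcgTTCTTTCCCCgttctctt
Rplp2 (chr7:141447631-141447663, plus strand): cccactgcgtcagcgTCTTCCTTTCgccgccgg
Rps27 (chr3:90213634-90213665, minus strand): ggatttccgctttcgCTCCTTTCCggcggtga

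The runs in these lines span 9 to 21 bases and lie between purine-containing flanks that differ from gene to gene. They begin between −14 and 9 bases from the RefSeq start, a closeness that the choice of lines itself set. Upstream of the start the promoters had less in common. The letters CCGCCC, a GC box to which Sp and KLF proteins can bind, were in 58.3% of the 60 windows and in 64.0% of the windows of tested genes. A further binding sequence of KLF proteins, with the letters CCACCC, was in 15 of the 60 windows and in 37.4% of those of tested genes. CCGGAAG, an ETS-like element, was in 40.0% against 17.4%. TATAAA was in 8.3% against 7.2% and CCAAT in 31.7% against 38.1%. Both strands were searched for each of these motifs, and a match is a description of letters, not a bound site.

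The genes took a large part of each library. At E17.5 the 80 genes held 6.70, 7.56 and 8.32% of all counts on genes in the Klf5+/- libraries and 7.52, 6.98 and 7.94% in the Klf5-/- libraries. The groups overlapped, with means of 7.53 ± 0.81% and 7.48 ± 0.48% (SD, n = 3 each; two-sided exact permutation p = 0.9, where 0.1 is the smallest the design allows). In the HFD set the share was 15.3 and 13.7% in Klf5+/- and 17.52 and 12.32% in Klf5-/- libraries. The Klf5-/- libraries were the highest and the lowest of the 4, with means of 14.5 ± 1.13% and 14.9 ± 3.68% (SD, n = 2 each; exact permutation p = 1, smallest possible 0.33). The counts of large-subunit genes were 1.41 to 1.44 times those of small-subunit genes at E17.5 and 1.35 to 1.44 times in the HFD set. Library totals lay between 31819010 and 46445546 counts on genes, so counting error is small beside these spreads. The sets differ in sorting, library kit and the share of reads left out as ambiguous, with no age given for the HFD set. What each adds to the higher HFD share cannot be told apart.

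**Figure D1:**
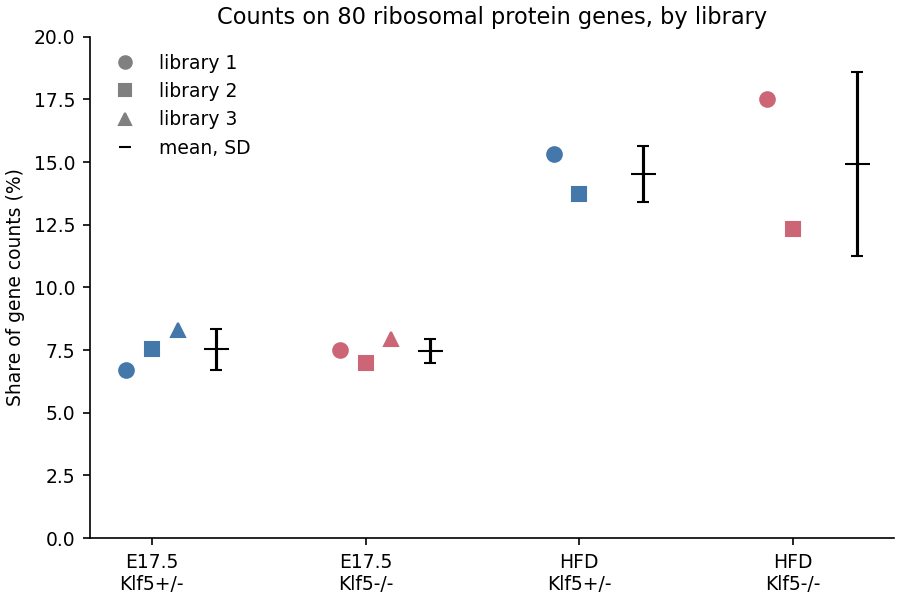
Share of all gene counts that fell on the 80 ribosomal protein genes, in percent, for each library; symbols give the library number and bars the mean and SD. The genotypes overlap in both sets, and the 4 HFD libraries, from 12.32 to 17.52%, lie above the 6 E17.5 libraries, from 6.70 to 8.32%.

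Levels per kilobase of exon, in CPM (counts scaled to library size, here with TMM factors within each set), ranged widely among the genes. Over the 76 genes tested at E17.5 other than the identifier named Rpl24, they ran from 103.9 for Rps15a to 2714 for Rplp1, with a median of 602. Rplp1, a protein of the large subunit's stalk, was followed by Rps26 at 2645, Rps12 at 2269, Rps27 at 2099 and Rpl4 at 1766 CPM per kilobase. The exon length takes in all transcripts of a gene, so genes with many isoforms come out low. In the Klf5+/- libraries the level relative to library total was higher in the HFD set than at E17.5 for all 76, by a median of 1.91 times and at most 5.14 times, for Rpl23a. These levels come from sets prepared differently and carry no test.

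Klf5 itself did not differ by genotype at E17.5, with 180.6 ± 17.97 CPM in Klf5+/- and 182.6 ± 12.7 CPM in Klf5-/- libraries (SD, n = 3 each; edgeR adjusted p = 0.982). Among the HFD libraries Klf5 had 62.8 and 42.8 CPM in those labelled Klf5+/- and 101.2 and 119.7 CPM in those labelled Klf5-/-. The libraries labelled Klf5-/- were thus the higher, with no overlap, at 110.4 ± 13.1 against 52.8 ± 14.1 CPM (SD, n = 2 each; 1.06 on the log2 scale, SE 0.23, edgeR adjusted p = 0.0533). The difference of that effect from the one at E17.5 was 1.06 (SE 0.24, edgeR adjusted p = 0.0159). These counts do not check the labels, since the deleted part is unknown here, and each direction below rests on the labelled genotype.

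At E17.5 no ribosomal protein gene passed the test between genotypes. Of the 77 genes tested, 0 had an edgeR adjusted p under 0.05, where 0.0861% of the 15092 genes tested did. An unadjusted p under 0.05 was found for 1 of the 77, against 10.0% of all genes. DESeq2 also called 0 of the 77, where it called 461 of all genes tested. The log2 fold changes of Klf5-/- against Klf5+/- were small and mostly below 0: they were below 0 for 72 of 77, with a median of −0.08, against 47.3% and a median of 0.01 for all genes. All 31 small-subunit genes and 41 of 46 large-subunit genes lay below 0. Both genotypes' values overlapped for all but 2 of the 77, Rpl38 and Rps28, whereas 14.8% of all genes had groups that did not overlap.

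The size of that lean depended on single libraries. Relative to each gene's mean, the third Klf5+/- library was the highest of the 6 for 49 of 77 genes and the second Klf5-/- library the lowest for 50, while the first Klf5+/- library was the lowest for 17. Without the third Klf5+/- library, 47 of 77 lay below 0, with a median of −0.01. Without the second Klf5-/- library, 45 of 77 did, with a median of −0.02. Leaving out any other single library kept 68 to 76 of 77 below 0, with medians from −0.18 to −0.07. Scaled by library totals alone, 49 of 77 lay below 0 with a median of −0.02, while the median of all genes moved to 0.08.

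**Figure D2:**
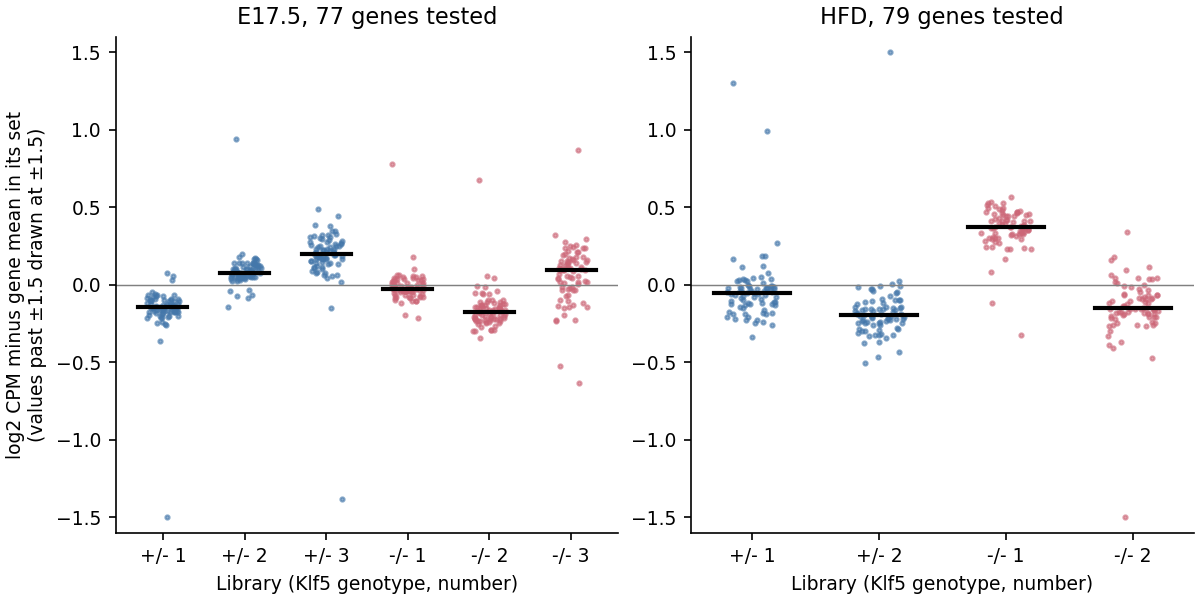
Each point is 1 ribosomal protein gene in 1 library: its log2 CPM (with 0.5 added) minus the mean of that gene over the libraries of its set; black lines are medians. At E17.5 the medians of the genotypes interleave, and in the HFD set the first Klf5-/- library stands above the other 3 with a median of 0.37.

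The lowest log2 fold changes at E17.5 were those of Rps29, Rpl38, Rpl39, Rps28 and Rpl41. Rps29, a small zinc-binding protein of the small subunit (chromosome 12, 69157722 to 69159186), had 283.7, 299.5 and 355.4 CPM in the Klf5+/- libraries and 284.2, 270.4 and 175.5 CPM in the Klf5-/- libraries. The third Klf5-/- library alone stood well below the rest, and the others overlapped (−0.36 on the log2 scale, SE 0.18, edgeR adjusted p = 0.561). Rps28, which lies near the mRNA channel of the small subunit, had 240.7, 239.8 and 274.9 CPM against 235.4, 237.8 and 158.5 CPM. The same library was low, and the other 2 Klf5-/- libraries were within 5 CPM of the lowest Klf5+/- one (−0.26, SE 0.15, edgeR adjusted p = 0.660). Rpl38, a large-subunit protein known for its role in the translation of Hox mRNAs, had 210.7, 196.6 and 289.2 CPM against 177.8, 190.5 and 190.4 CPM. All 3 Klf5-/- libraries lay below all 3 Klf5+/- libraries, by a margin smaller than the spread among the Klf5+/- libraries (−0.32, SE 0.14, edgeR adjusted p = 0.458). Rpl39 and Rpl41, both of the large subunit, had log2 fold changes of −0.27 and −0.23.

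In the HFD set the values lay on the other side of 0, again with 0 genes called. Of 79 genes tested, 0 passed an edgeR adjusted p of 0.05, where 5.50% of 15848 genes did; 2 had an unadjusted p under 0.05, against 27.1% of all genes. DESeq2 called 3, Rpl27 and Rpl35a higher and Rpl39l lower, where it called 18.3% of all genes. The log2 fold change was above 0 for 77 of 79, with a median of 0.27, against 49.5% and a median of −0.01 for all genes. All 31 small-subunit genes lay above 0, with a median of 0.28, and so did 46 of 48 large-subunit genes. The genotypes' values did not overlap for 24 of 79, whereas they did not overlap for 60.1% of all genes.

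The lean above 0 rested on 1 library. The first Klf5-/- library was the highest of the 4 for 76 of the 79 genes. The second Klf5-/- library was the lowest for 24 of them and the second Klf5+/- library for 40. Without the first Klf5-/- library, 40 genes lay above 0 and 39 below, with a median of 0.00; 2 were called, the identifier named Rpl24 higher and Rpl39l lower, where 32.2% of all genes were. Without the second Klf5-/- library the median was 0.53 and 6 genes were called, 5 higher and Rpl39l lower, where 16.3% of all genes were. Scaled by library totals, all genes moved to a median of −0.23 and the ribosomal protein genes to 0.04, with 56 of 79 above 0; the gap between the 2 medians was 0.27 under both scalings.

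Other cell types and layers also differed among these 4 libraries. The summed level of 12 fibroblast markers was 17381 and 21051 CPM in the Klf5+/- libraries and 4843 and 811 CPM in the Klf5-/- libraries, with 0 of the 12 above 0 in log2 fold change. That of 12 markers of suprabasal keratinocytes was 30029 and 32292 CPM against 63806 and 70697 CPM, with all 11 tested markers above 0. All 9 basal keratinocyte markers lay above 0 as well. Below 0 lay all tested endothelial (8), erythroid (6) and skeletal muscle (11) markers, 6 of 7 adipocyte markers and all 16 proliferation genes. Immune and melanocyte markers lay on both sides. At E17.5 the same fibroblast markers summed to 488 to 610 CPM in Klf5+/- and 707 to 743 CPM in Klf5-/- libraries. The suprabasal markers summed there to 61676 to 77987 CPM and 33267 to 52525 CPM. Of these 12 markers, 11 lay below 0 and Krt2 lay above, at 2.46 (edgeR adjusted p = 0.00779). Mitochondrially encoded genes took 3.91 and 5.51% of HFD counts in Klf5+/- and 3.11 and 3.65% in Klf5-/- libraries. The part of these differences in the values of the ribosomal protein genes was not tested. In bulk RNA, fewer cells of a type and less RNA per cell cannot be told apart.

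The highest values in the HFD set were those of Rplp2, Rpl35a, Rps13, Rpl39 and Rps12. Rplp2, the partner of Rplp1 in the stalk that recruits elongation factors, had 838 and 667 CPM in Klf5+/- and 1213 and 974 CPM in Klf5-/- libraries. Both Klf5-/- libraries lay above both Klf5+/- libraries, and the distance between the closest of them was smaller than the spread within either group (0.54 on the log2 scale, SE 0.23, edgeR adjusted p = 0.199). Rps13, Rpl39 and Rps12 had log2 fold changes of 0.48, 0.47 and 0.47, and of the 3 only Rpl39 had overlapping groups. At the other end, apart from the copies described further on, Rpl15 and Rps7 were among the lowest, at 0.06 and 0.07.

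**Figure D3:**
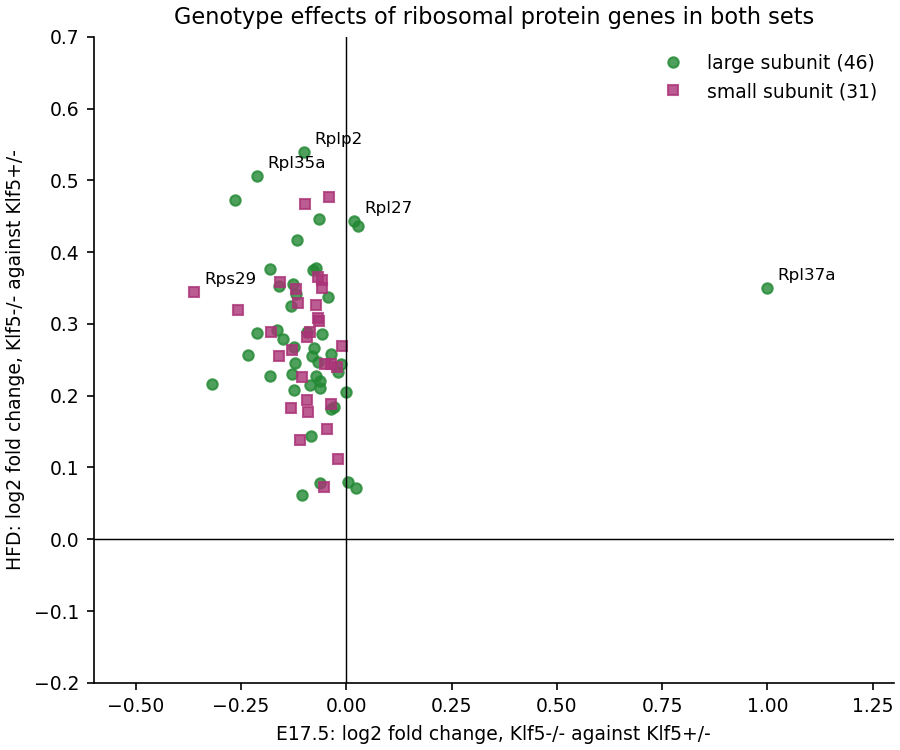
Log2 fold change of Klf5-/- against Klf5+/- in the E17.5 set (horizontal) and the HFD set (vertical) for the 77 ribosomal protein genes tested in both. All 77 lie above 0 on the HFD axis and 72 lie below 0 on the E17.5 axis; no point passed the test in either set, and Rpl37a, at 1.00 on the E17.5 axis, stands apart.

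Whether the genotype effect itself differed between the sets was tested by subtracting the E17.5 effect from the HFD effect in 1 fit of all 10 libraries. It passed for 1 of 79 genes, Rpl35a, where 14.7% of 17260 genes passed, so the share of ribosomal protein genes called was below the background. Rpl35a, a large-subunit protein mutated in some cases of Diamond-Blackfan anaemia (chromosome 16, 33056453 to 33060189), had 493.9, 577.7 and 576.0 CPM in the Klf5+/- and 494.2, 494.9 and 433.3 CPM in the Klf5-/- libraries at E17.5. There were 708 and 598 CPM in Klf5+/- and 978 and 878 CPM in Klf5-/- libraries of the HFD set. The genotypes overlapped at E17.5, where the first Klf5+/- library was as low as the first 2 Klf5-/- libraries, and did not overlap in the HFD set. The difference was 0.73 on the log2 scale (SE 0.20, edgeR adjusted p = 0.0315), made of −0.21 (SE 0.10) at E17.5 and 0.51 (SE 0.21) in the HFD set, neither of which passed alone. Scaled by library totals it was 0.43 (edgeR adjusted p = 0.139), and the adjusted p lay between 0.0567 and 0.129 in 6 of the 10 fits that left out 1 library. Over all 79 genes the difference had a median of 0.38, against −0.02 for all genes tested; 76 lay above 0, a count that shares its libraries with the 2 comparisons above.

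Some genes stood apart from the rest. Rpl37a, a zinc-binding large-subunit protein (chromosome 1, 72711260 to 72713809), had 86.8, 618.3 and 123.0 CPM in the Klf5+/- libraries at E17.5 and 551.8, 513.4 and 588.0 CPM in the Klf5-/- libraries. The first and the third Klf5+/- libraries were low and the second was the highest of the 6, so the genotypes overlapped (1.00 on the log2 scale, SE 0.87, edgeR adjusted p = 0.845). Without the second Klf5+/- library the log2 fold change was 2.39 (edgeR adjusted p = 0.00184). All 4 HFD libraries lay between 347 and 489 CPM.

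Gm4149, which RefSeq lists as a pseudogene (chromosome 13, 75644864 to 75645226), had the opposite pattern and was singled out after its values were seen. It had 109.5, 2.49 and 137.1 CPM in the Klf5+/- libraries at E17.5 and 2.53, 2.43 and 3.20 CPM in the Klf5-/- libraries. The 2 libraries low for Rpl37a were the 2 high for Gm4149. Gm4149 lay between 110.5 and 169.9 CPM in all 4 HFD libraries. Reads that could be placed at both loci cannot be told apart here, and the cause of the pattern was not tested.

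Rpl39l, the copy of Rpl39 (chromosome 16, 10170226 to 10174911), had between 0 and 7 counts in the E17.5 libraries and was not tested there. Among HFD libraries it had 28.7 and 34.3 CPM in the Klf5+/- libraries and 8.98 and 1.546 CPM in the Klf5-/- libraries. The Klf5+/- libraries were the higher (−2.60 on the log2 scale, SE 0.88, edgeR adjusted p = 0.163). The 4 libraries had the same order as their summed fibroblast markers. They also had the order of their summed endothelial markers, at 399 and 438 CPM in Klf5+/- and 76.1 and 15.8 CPM in Klf5-/- libraries. Rpl39l was called by DESeq2 (adjusted p = 0.00196), which called 18.3% of all genes. It was also called in the fit of all 10 libraries (edgeR adjusted p = 0.0478), where 3672 genes were. Under the other scalings and filters and with the replicate block it was not called. Its log2 fold change was −4.32 without the first Klf5-/- library and −1.77 without the second. The part of the cells behind these marker sums in the values of Rpl39l was not tested. Rpl39 itself, which shares its role at the exit tunnel, had 1569 and 1080 CPM against 2208 and 1470 CPM.

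Rpl3l, the striated-muscle copy of Rpl3, had 1 to 10 counts in each E17.5 library. Among HFD libraries it had 1.39 and 0.19 CPM in Klf5+/- and 0.38 and 0.22 CPM in Klf5-/- libraries (−1.43 on the log2 scale, SE 1.02, edgeR adjusted p = 0.417). The library with the highest value also had the highest sum of 12 skeletal muscle markers, at 3545 CPM against 1030, 1125 and 116 CPM in the others; their part was not tested. Rpl10l had 0 counts in all 10 libraries, where 3 counts would correspond to 0.0646 to 0.0943 CPM. Rps27l, a copy of Rps27 that p53 can induce, had 98.2 to 138.9 CPM at E17.5 and 165.9 to 249.4 CPM in the HFD set, with overlapping genotypes in both. Rpl3, Rpl10, Rps27 and the X-linked Rps4x, which have the common roles, had log2 fold changes between −0.16 and 0.26 in either set, and none was called.

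**Figure D4:**
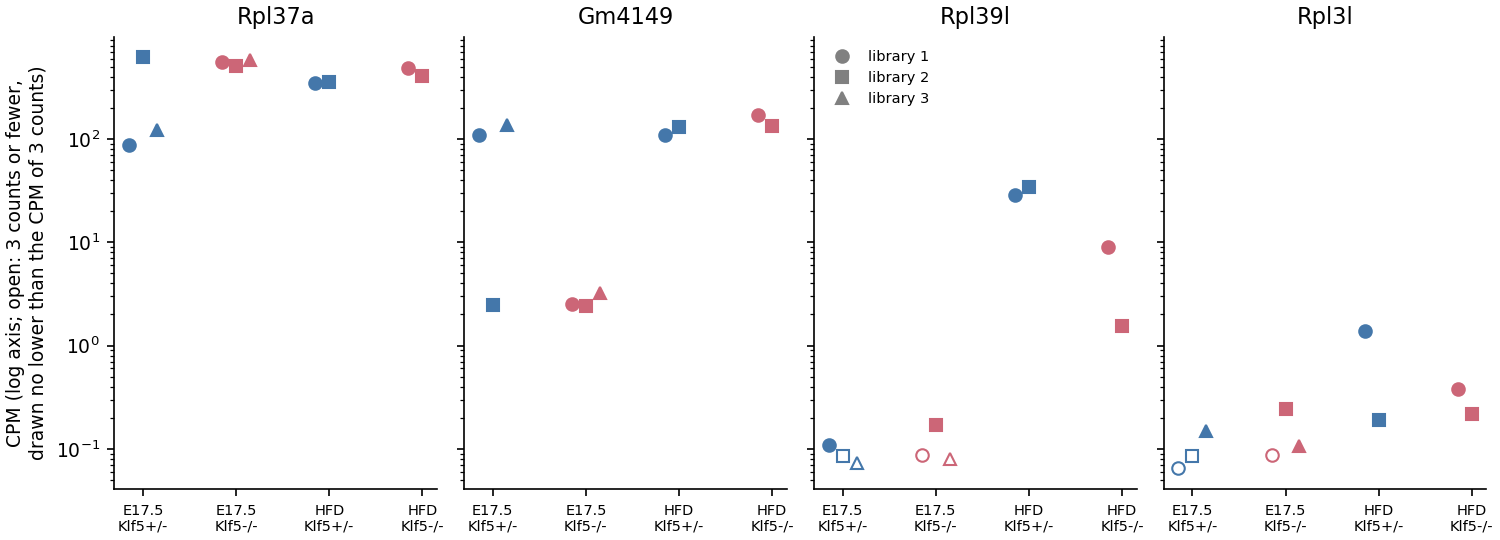
CPM of Rpl37a, Gm4149, Rpl39l and Rpl3l in each library on a log axis; open symbols mark 3 counts or fewer. Rpl37a and Gm4149 are high in opposite libraries among the 3 Klf5+/- samples at E17.5, and Rpl39l ranges in the HFD set from 1.546 to 34.3 CPM.

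The identifier named Rpl24 in the count files went against its name. It spans chromosome 16, 55973883 to 56008913, and the table of gene names calls it Zbtb11, a zinc-finger gene; the other 79 symbols matched that table. It had 37.7 to 47.8 CPM at E17.5, and its 5.63 CPM per kilobase was the lowest of the genes tested there. In the Klf5+/- libraries it was lower relative to library total in the HFD set than at E17.5, at 0.48 times. The gene model written RPL24 in capitals, to which the table gives the name Rpl24, lies outside the name rule and had 0.95 to 1.62 CPM at E17.5. The RefSeq window matched by the symbol Rpl24, 1 of the 60, lies at the start of that model and not of the identifier counted here. In the comparisons on all libraries, leaving it out moved each median log2 fold change by less than 0.01 and changed no count of calls; without the first HFD Klf5-/- library it is 1 of the 2 genes called.

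Chromatin at the starts of these genes was marked and open in sorted E17.5 epithelium. An H3K27ac peak lay within 1 kb of the annotated start for 74 of the 80 genes (92.5%; 96.1% of the 77 tested), against 57.7% of all genes tested at E17.5 and 85.6% of the 10% of tested genes with the highest CPM. An ATAC peak did so for 75 of 80 (93.8%; 97.4% of the 77), against 77.4% and 93.2%. A KLF5 peak lay within 1 kb of 24 of 80 (30.0%, 95% Wilson interval 21.1 to 40.8%; 31.2% of the 77), against 18.9% of genes tested and 35.5% of that 10%. The KLF5 share thus stood between that of all tested genes and that of highly expressed genes. Its interval holds the latter, 35.5%, and leaves out the former, 18.9%. The intervals cover counting error only and take each gene as a separate draw, and there was 1 sample per assay.

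**Figure D5:**
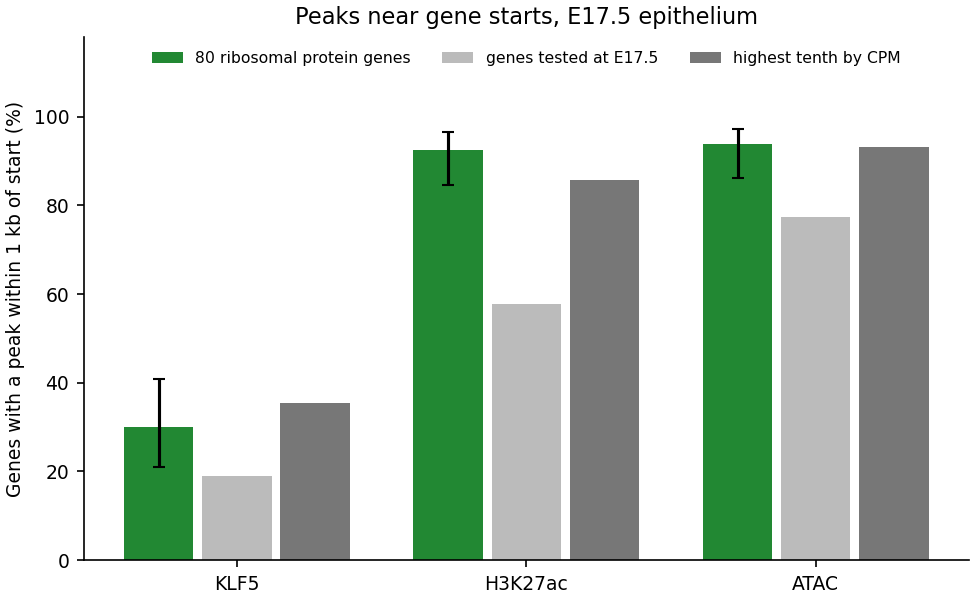
Percent of genes with a KLF5, H3K27ac or ATAC peak within 1 kb of the start for the 80 ribosomal protein genes, all genes tested at E17.5 and the 10% of tested genes with the highest CPM; error bars are 95% Wilson intervals. For KLF5 the ribosomal protein genes, at 30.0%, lie between the other groups, at 18.9 and 35.5%.

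All 24 genes with a KLF5 peak also had an H3K27ac and an ATAC peak, and 50 had the last 2 without KLF5. Fold enrichments, which are the authors' values at each summit, were moderate: the median of the 24 KLF5 peaks was 3.89, where the whole list had a median of 3.99 and a maximum of 20.1. The 5 highest belonged to Rpl9 (4.99), Rpl27 (4.78), Rpl18 (4.64), Rpl3 (4.62) and Rps19 (4.19), the last a small-subunit protein often mutated in Diamond-Blackfan anaemia. Of the 24 summits, 22 lay within 250 bases of the start and 20 upstream of it, with a median position of −66.5 bases from the start. With the 50% of KLF5 peaks of highest −log10 q alone, 7 of the 80 genes had one (8.75%). The share of all tested genes at that cut was not computed, so the fall cannot be set against other genes.

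The lines that follow show the 250 bases before the RefSeq start, 5′ to 3′ on the gene's strand, for the 4 highest KLF5 folds whose summit lay in such a window and whose RefSeq start was within 60 bases of the count files' start, and for Rpl35a. Capitals mark CCGCCC or CCGGAAG on either strand.
Rpl9 (chr5:65391432-65391681, minus strand): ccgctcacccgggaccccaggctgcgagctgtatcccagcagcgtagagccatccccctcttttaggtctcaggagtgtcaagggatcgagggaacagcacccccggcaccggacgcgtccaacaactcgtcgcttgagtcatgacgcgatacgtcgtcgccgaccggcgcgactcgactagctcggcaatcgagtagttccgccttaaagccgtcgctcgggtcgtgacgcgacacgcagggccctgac
Rpl27 (chr11:101441995-101442244, plus strand): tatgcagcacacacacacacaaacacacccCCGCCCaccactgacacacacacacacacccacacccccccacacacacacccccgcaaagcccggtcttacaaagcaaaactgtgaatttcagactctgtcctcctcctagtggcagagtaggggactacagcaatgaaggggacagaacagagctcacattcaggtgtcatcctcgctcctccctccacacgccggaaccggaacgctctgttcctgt
Rps25 (chr9:44407464-44407713, plus strand): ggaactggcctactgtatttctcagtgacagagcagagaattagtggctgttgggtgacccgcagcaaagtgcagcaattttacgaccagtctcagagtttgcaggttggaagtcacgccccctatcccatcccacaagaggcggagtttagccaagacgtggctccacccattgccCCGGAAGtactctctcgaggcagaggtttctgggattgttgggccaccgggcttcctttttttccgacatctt
Rplp0 (chr5:115559217-115559466, plus strand): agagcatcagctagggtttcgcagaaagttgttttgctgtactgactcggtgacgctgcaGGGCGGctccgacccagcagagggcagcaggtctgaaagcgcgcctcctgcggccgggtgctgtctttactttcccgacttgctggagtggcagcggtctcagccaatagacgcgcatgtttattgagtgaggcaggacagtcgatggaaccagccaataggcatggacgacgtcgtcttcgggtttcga
Rpl35a (chr16:33056203-33056452, plus strand): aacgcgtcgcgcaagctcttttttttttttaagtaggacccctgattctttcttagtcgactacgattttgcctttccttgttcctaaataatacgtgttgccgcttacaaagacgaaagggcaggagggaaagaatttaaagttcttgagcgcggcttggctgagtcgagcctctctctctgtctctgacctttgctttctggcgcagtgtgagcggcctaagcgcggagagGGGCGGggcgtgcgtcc

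Of these 5 promoters, Rpl27, Rplp0 and Rpl35a held the GC box letters, Rps25 held the ETS-like letters and Rpl9 held neither. Over all 60 windows the GC box letters were in 72.2% of 18 with a KLF5 peak and 52.4% of 42 without. Among all tested genes the shares were 78.5% with and 60.2% without. The letters CCACCC were in 22.2% of the 18 with a KLF5 peak and 26.2% of the 42 without. Among all tested genes the CCACCC shares were 39.5% with and 36.9% without. In these shares the peak was sought at the count files' start and the letters at the RefSeq start. The starts differ for some genes, such as Rpl18, counted with a peak, and Rps2, counted without one.

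The genotype values were close for genes with and without a KLF5 peak. At E17.5 the median log2 fold change was −0.09 over the 24 genes with a KLF5 peak and −0.08 over the 53 tested without one. For the HFD set it was 0.29 over the same 24 and 0.26 over 55. None was called on either side. Over all genes tested the medians were 0.00 with a KLF5 peak (0 of 2850 called) and 0.01 without one (13 of 12242) at E17.5, and 0.09 (74 of 2851) and −0.04 (798 of 12997) in the HFD set. No difference between genes with and without a peak was tested.

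Of the genes with no peak, 5 had none of the 3 kinds: Rpl3l, Rpl10l and Rpl39l, which had at most 10 counts at E17.5, and Rps2 and Rps10, which were highly expressed. Rpl13a had an ATAC peak alone. For Rps2, Rps10 and Rpl13a the start in the count files differs from that in RefSeq. At the RefSeq starts, all 3 had H3K27ac and ATAC peaks and Rps2 had a KLF5 peak as well. Rpl18, whose RefSeq start lies 2614 bases from that in the count files, had no KLF5 peak at its RefSeq start. Of the 60 matched genes, 18 had a KLF5 peak at the RefSeq start, Rps2 among them. At the start in the count files 18 also did, with Rpl18 in place of Rps2.

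The other parts of the translation machinery were described from lists of textbook members. At E17.5, 0 of the 205 genes tested in these lists and the control lists below were called, beside 0.0861% of all genes tested. In the HFD set 0 of 205 were called, beside 5.50%. The 6 listed ribosomal protein genes outside the name rule, among them Gnb2l1 (also known as Rack1), Rps3a1, Fau, Rpl22l1 and Rpl36al, had a median log2 fold change of −0.07 at E17.5 and 0.25 in the HFD set. For elongation factors the medians were −0.07 and 0.28, for initiation factors −0.04 and 0.26 and for ribosome biogenesis genes 0.04 and 0.39. Other mRNAs known to carry a TOP motif had medians of −0.05 and 0.14; among them Vim, a filament gene that fibroblasts express strongly, was at −1.51 in the HFD set (SE 0.38, edgeR adjusted p = 0.0717). The 80 mitochondrial ribosomal protein genes, of which 75 and 74 were tested, had medians of −0.02 and 0.09. Named by the highest values in the HFD set, Eif6, which keeps the large subunit from joining too early, was at 0.87 (SE 0.22, edgeR adjusted p = 0.0708), Rrp12, which acts in ribosome export, at 0.93 (adjusted p = 0.117) and Eif5a, a factor for difficult peptide bonds, at 0.68 (adjusted p = 0.104). At E17.5 the value furthest from 0 in these lists was that of Eef2k, the kinase that inhibits elongation factor 2, at −0.37 (edgeR adjusted p = 0.186).

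Genes around mTOR and Myc had medians of −0.01 and 0.06. Those of the p53 response, which free ribosomal proteins can trigger through Mdm2, had medians of −0.15 and 0.37. Of these, 0 of 12 were called in either set, beside 0.0861% of all genes at E17.5 and 5.50% in the HFD set. Cdkn1a, the cell-cycle inhibitor p21, was at −0.59 at E17.5 (edgeR adjusted p = 0.179), and Aen, a nuclease induced by p53, at 1.199 in the HFD set (edgeR adjusted p = 0.0653).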

How the data were processed

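RNA libraries (10) and peak lists of E17.5 epithelium were analysed; HaCaT and IgG samples were not used here. Raw counts of reads for each Ensembl gene were deposited, made with STAR 2.6.0b and HTSeq on mm10 per the submitters' processing notes; whether strand was used is not given. The deposited HFD files also hold RPKM values, which were not tested. Peaks were called with MACS2, per those notes; the deposited fold enrichment (a ratio at the summit) and −log10 q are the authors' values. Reads without a gene (13.4 to 16.9% of reads) stayed out of totals; reads with several alignments were among them, so genes with near-identical copies are uncertain.

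The E17.5 and HFD sets were fitted separately in edgeR 4.0.16 under R 4.3.3 (TMM, filterByExpr by group, robust quasi-likelihood test, Benjamini-Hochberg adjusted p under 0.05), and the difference of effects in a fit of all 10 libraries. The fits were tested on simulated data. DESeq2 1.42.0, other scalings and filters, a replicate block and leaving out libraries were alternatives. No label says that the libraries are of separate animals; p-values then rest on spread between libraries that may be technical. Promoter windows came from RefSeq (GRCm38.p6). Named genes were those called, the 5 highest and lowest in each comparison, the 5 highest per kilobase and by KLF5 fold, copies ending in l or x, genes without peaks or tests, and in other lists the called or most extreme genes. The genes and lists were chosen with earlier results of these data known. Some genes that the rule would name are not reported here.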

Additional observations from a re-analysis of the deposited data

Results flagged for a closer look

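The difference of the genotype effects between the sets (HFD minus E17.5, log2) passed the test for Rpl35a at 0.73 (edgeR adjusted p = 0.0315). It passed for Klf5 at 1.06 (edgeR adjusted p = 0.0159), with 0.02 at E17.5 and 1.06 in the HFD set. In the 8 lists of the translation machinery, its control and the p53 response, without the marker lists, it passed for 14 of 206 genes tested (6.80%), beside 14.7% of all genes tested. These were Rpl36al at 0.55 (edgeR adjusted p = 0.0486), a copy of Rpl36a outside the name rule, and the factors Eif5a at 0.80, Eef2k at 0.85, Eif3g at 0.56, Eif1ax at 0.65, Eif5 at 0.71 and Eif6 at 1.05. Nhp2, a box H/ACA protein of ribosome biogenesis, was at 0.78, Mrps21 of the mitochondrial ribosome at 0.59 and Myc at 0.78. In the p53 list Cdkn1a was at 1.16, Pmaip1 at 1.39 and Aen at 1.44 (3 of 12). Vim, a TOP mRNA and a gene of fibroblasts, was at −1.65. Marker sums of fibroblasts and suprabasal keratinocytes differed between the sets in the same libraries, and their part in these differences was not tested.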

How the results depend on the processing

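The count of ribosomal protein genes called was 0 at E17.5 under every scaling, filter and tool tried, and 0 to 1 when 1 library was left out (Rpl37a, without the second Klf5+/- library). In the HFD set it was 3 with DESeq2, 3 in the fit of all 10 libraries and 0 to 6 with 1 library left out. For the difference it was 0 on library totals, 5 with DESeq2, 2 with the replicate block (Rpl35a and Rplp2) and 0 to 4 with 1 library left out, where the 1 gene called without the second E17.5 Klf5+/- library was Rpl37a. With 1 library left out the median ranged from −0.18 to −0.01 at E17.5, 0.00 to 0.53 in the HFD set and 0.090 to 0.59 for the difference, which was 0.083 on library totals. The genotype difference in the share of counts, in percentage points, ranged from −0.46 to 0.35 at E17.5 and from −2.20 to 3.01 in the HFD set. Where this left 1 library in a group, that library is assumed to vary like the others. ATAC shares were 97.5% within 5 kb and 83.8% with the 50% of peaks of highest −log10 q. For KLF5 the latter was 8.75%. No share of all genes was computed under these settings. All genes called at E17.5 numbered 13, but 461 with DESeq2, 237 without a filter, 42 with the replicate block, 6 on library totals, 3 in the fit of all 10 libraries and 2 with a mean of at least 1 CPM; in the HFD set 872, but 1339, 2906, 2396, 1520 and 3672 on library totals, with DESeq2, without a filter, with the block and in the fit of all 10 libraries. With 1 library left out these counts ran from 0 (without the first Klf5-/- library) to 513 (without the third) at E17.5, and in the HFD set were 36 and 19 without the first and second Klf5+/- library and 5389 and 2681 without the first and second Klf5-/- library. For the difference 2534 genes were called, 3039 on library totals, 3677 with DESeq2, 2532 with the block and 1266 to 4467 with 1 library left out. In deviations from their group means, same-numbered libraries correlated at 0.05, −0.12 and 0.25 at E17.5. Libraries of different numbers correlated there at −0.29 to 0.28. With so few libraries, whose deviations within a group offset each other, these values cannot settle whether the numbers pair samples. For the HFD set, with 2 libraries per group, the value was 0.21 (−0.21 for the other pairs), a single mirrored value that cannot settle it either. Leaving out the identifier named Rpl24 was chosen after seeing the data.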
